A study of Mus musculus with 23 samples.

Results

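Expression of 9 genes of early B-cell development (Rag1, Rag2, Dntt, Vpreb1, Vpreb3, Igll1, Il7r, Ebf1 and Pax5) was examined in bone from 23 mice. They were found by gene symbol in the table of 17644 genes with TPM values and matched by gene ID to the count table of 67228 genes. All 9 passed the filter of at least 10 counts in at least 5 mice and were among the 14364 genes tested. Bulk RNA-Seq had been made of femur and tibia after the marrow was spun out, with 1 library per mouse. All mice were females on a C57BL6/N background, 11 weeks old at collection. The groups were WT mice given saline (WT Control, n = 5), WT mice given streptozotocin (WT T1D, n = 6), mice labelled as Sarm1 knockouts given saline (KO Control, n = 6), and mice labelled as Sarm1 knockouts given streptozotocin (KO T1D, n = 6). Streptozotocin, which destroys the insulin-producing β cells, was given at 100 mg/kg, and T1D (type 1 diabetes) had lasted 3 weeks. The knockout was global, and per the study's methods some WT mice were littermates of the knockouts and others were bought from a vendor.

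B cells are made in bone marrow from lymphoid progenitors. The transcription factors Ebf1 and Pax5 commit cells to the B lineage, and the IL-7 receptor (Il7r) carries the signal on which mouse pro-B cells depend. The recombinase encoded by Rag1 and Rag2 cuts the immunoglobulin genes, terminal transferase (Dntt) adds nucleotides at the heavy chain joints, and the new heavy chain is then tested with the surrogate light chain made of VpreB and λ5 (Igll1). Dntt, Vpreb1 and Igll1 are switched off as cells become small pre-B cells, where Rag1 and Rag2 are used again for the light chain and Pax5 stays on.

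Positions are given in GRCm38.p6, the build used for the deposited values. Vpreb1 (gene ID 22362, chr16:16868401-16869255) and Igll1 (16136, chr16:16860671-16863985) are neighbours, separated by 4415 bp. Rag1 (19373, chr2:101638252-101649532) and Rag2 (19374, chr2:101624712-101632528) are separated by 5723 bp. The others are Dntt (21673, chr19:41029275-41059525), Vpreb3 (22364, chr10:75943024-75949657), Il7r (16197, chr15:9506159-9529941), Ebf1 (13591, chr11:44618100-45008096) and Pax5 (18507, chr4:44524748-44710694). The 250 bases upstream of the RefSeq start of these neighbours are shown, 5′ to 3′ on the gene's strand, because both pairs varied together across mice. Most other pairs of the 9 genes did so as well, so this does not set the neighbours apart. Capitals mark matches on either strand to CAGNTG, the E protein motif, or TGGGAA, the Ikaros motif.
Vpreb1, chr16:16869256-16869505, minus strand: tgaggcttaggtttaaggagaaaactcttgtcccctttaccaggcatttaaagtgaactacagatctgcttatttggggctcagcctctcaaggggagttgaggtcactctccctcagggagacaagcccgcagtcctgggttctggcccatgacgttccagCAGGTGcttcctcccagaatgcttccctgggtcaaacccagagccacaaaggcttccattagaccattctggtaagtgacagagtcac
Igll1, chr16:16863986-16864235, minus strand: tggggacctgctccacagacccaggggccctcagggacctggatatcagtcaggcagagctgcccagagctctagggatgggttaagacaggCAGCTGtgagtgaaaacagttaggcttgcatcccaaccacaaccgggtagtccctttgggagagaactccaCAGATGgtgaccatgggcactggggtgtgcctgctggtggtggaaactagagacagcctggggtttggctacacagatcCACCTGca
Rag1, chr2:101649533-101649782, minus strand: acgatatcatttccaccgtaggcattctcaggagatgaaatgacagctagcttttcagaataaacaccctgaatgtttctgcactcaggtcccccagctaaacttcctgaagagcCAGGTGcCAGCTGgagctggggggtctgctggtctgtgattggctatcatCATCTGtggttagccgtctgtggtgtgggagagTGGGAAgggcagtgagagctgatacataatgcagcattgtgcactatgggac
Rag2, chr2:101624462-101624711, plus strand: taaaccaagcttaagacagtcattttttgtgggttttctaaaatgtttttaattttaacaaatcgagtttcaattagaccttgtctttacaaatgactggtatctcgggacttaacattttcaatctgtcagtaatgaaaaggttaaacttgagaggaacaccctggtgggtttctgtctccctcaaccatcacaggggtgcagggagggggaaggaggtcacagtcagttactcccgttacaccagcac
The Igll1 and Rag1 windows each held 3 matches to CAGNTG, the Vpreb1 window held 1, and the Rag2 window held 0. TGGGAA was found 1 time in the Rag1 window. Over all 10 upstream windows of the 9 genes (Ebf1 has 2 starts), CAGNTG was present in 5, TGGGAA in 2, and the EBF motif, a palindrome with 2 free bases at its centre, in 0. Among 32851 RefSeq windows of the same length, 44.8% held CAGNTG, 21.6% held TGGGAA, and 0.779% held the EBF motif. CAGNTG and TGGGAA share no overlapping match in the windows shown.

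Libraries ranged from 16938101 to 20135592 counts. Sarm1 itself had 15 to 32 counts in WT Control, 6 to 21 in WT T1D, 5 to 29 in KO Control, and 15 to 28 in KO T1D, so WT and KO ranges overlapped within Control and within T1D. At these few counts Sarm1 RNA does not check the genotype, which was taken from the labels. Nothing in the labels says how mice were caged or treated in lots, but the mouse IDs start with A17, A36, A37 or A39. They are taken below as 2 series, A17 and A36 to A39. WT Control had 1 mouse (A1757) and WT T1D had 3 mice (A1764, A1787 and A1758) with IDs starting with A17, and all others had IDs from A36 to A39. IDs starting with A36 occurred only in mice labelled KO, and IDs starting with A17 or A39 only in WT mice. The WT T1D mice A3905 and A3906 stood apart from the other 21, and the comparisons of the 9 genes and the medians of the related lists are given with and without them.

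Levels of the 9 genes can be compared with each other in TPM, which accounts for transcript length. In WT Control the median was 118.8 TPM for Vpreb3, 26.8 for Igll1, 19.2 for Vpreb1, 14.9 for both Dntt and Ebf1, 12.9 for Pax5, 7.52 for Il7r, 4.71 for Rag1, and 2.95 for Rag2. Vpreb3 stood above the others by this measure, while the ranges of Dntt (11.72 to 24.58 TPM), Ebf1 (14.10 to 17.03 TPM) and Pax5 (9.45 to 21.27 TPM) overlapped. In KO T1D the medians kept the same order, from 140.0 TPM for Vpreb3 to 4.38 TPM for Rag2. The sum over the 9 genes ranged from 183.15 to 293.89 TPM in WT Control, 15.02 to 307.48 TPM in WT T1D, 188.18 to 420.51 TPM in KO Control, and 267.21 to 476.63 TPM in KO T1D. In RNA of a whole tissue, fewer cells of a type and less RNA per cell cannot be told apart.

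The widest differences between libraries were within WT T1D. In A3905 and A3906, each of the 9 genes was below its lowest value in the other 21 mice, a placing that 2173 of the 14364 tested genes (15.1%) shared. Values are given in counts, since several were at or near 0. A count of 0 in these libraries allows up to 3 counts, or 0.17 CPM (counts scaled by TMM library size) in A3905 and 0.173 CPM in A3906. Counting intervals cover counting error only.

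The recombinase genes were nearly without reads in these mice. Rag1 had 4 counts in A3905 and 0 in A3906, against 343 to 1034 in the other 21 mice. Rag2 had 0 and 2 counts, against 86 to 292. Both subunits were therefore at or within a few counts of 0 in libraries of 18971933 and 18334197 counts. Dntt, which acts in pro-B cells alongside them, kept 45 and 43 counts, against 267 to 1289, or 8.2% and 8.0% of the median CPM of the other mice.

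The surrogate light chain genes fell to the same floor. Igll1 had 0 and 2 counts in A3905 and A3906, against 139 to 998 elsewhere. Vpreb1 had 2 and 3 counts, against 110 to 739. Vpreb2, the near-identical copy of Vpreb1 with which reads may be shared, had 0 and 0.0578 CPM, against 0.4 to 6.67 CPM in the other mice. Vpreb3, which associates with immunoglobulin chains in precursor B cells, had 30 and 33 counts, against 495 to 1414, or 3.38% and 3.79% of the median of the others. Rag1, Rag2, Vpreb1, Vpreb3 and Igll1 were each over 10 times below the lowest of the other 21 mice, which was so for 49 tested genes (0.341%).

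The receptor and the transcription factors were reduced less in A3905 and A3906. Pax5 had 213 and 264 counts, against 657 to 1513, which was 21.2% and 26.8% of the median CPM of the others. Ebf1 had 288 and 329 counts, against 648 to 1304, which was 32.5% and 37.9%. Il7r had 214 and 239 counts, against 251 to 669, which was 62.0% and 70.7%. What remained thus ran from a few counts for Rag1, Rag2, Vpreb1 and Igll1 to most of the usual level for Il7r, a gene that T cells and other lymphoid cells also express. Ebf1 is also expressed in marrow stroma.

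**Figure D1:**
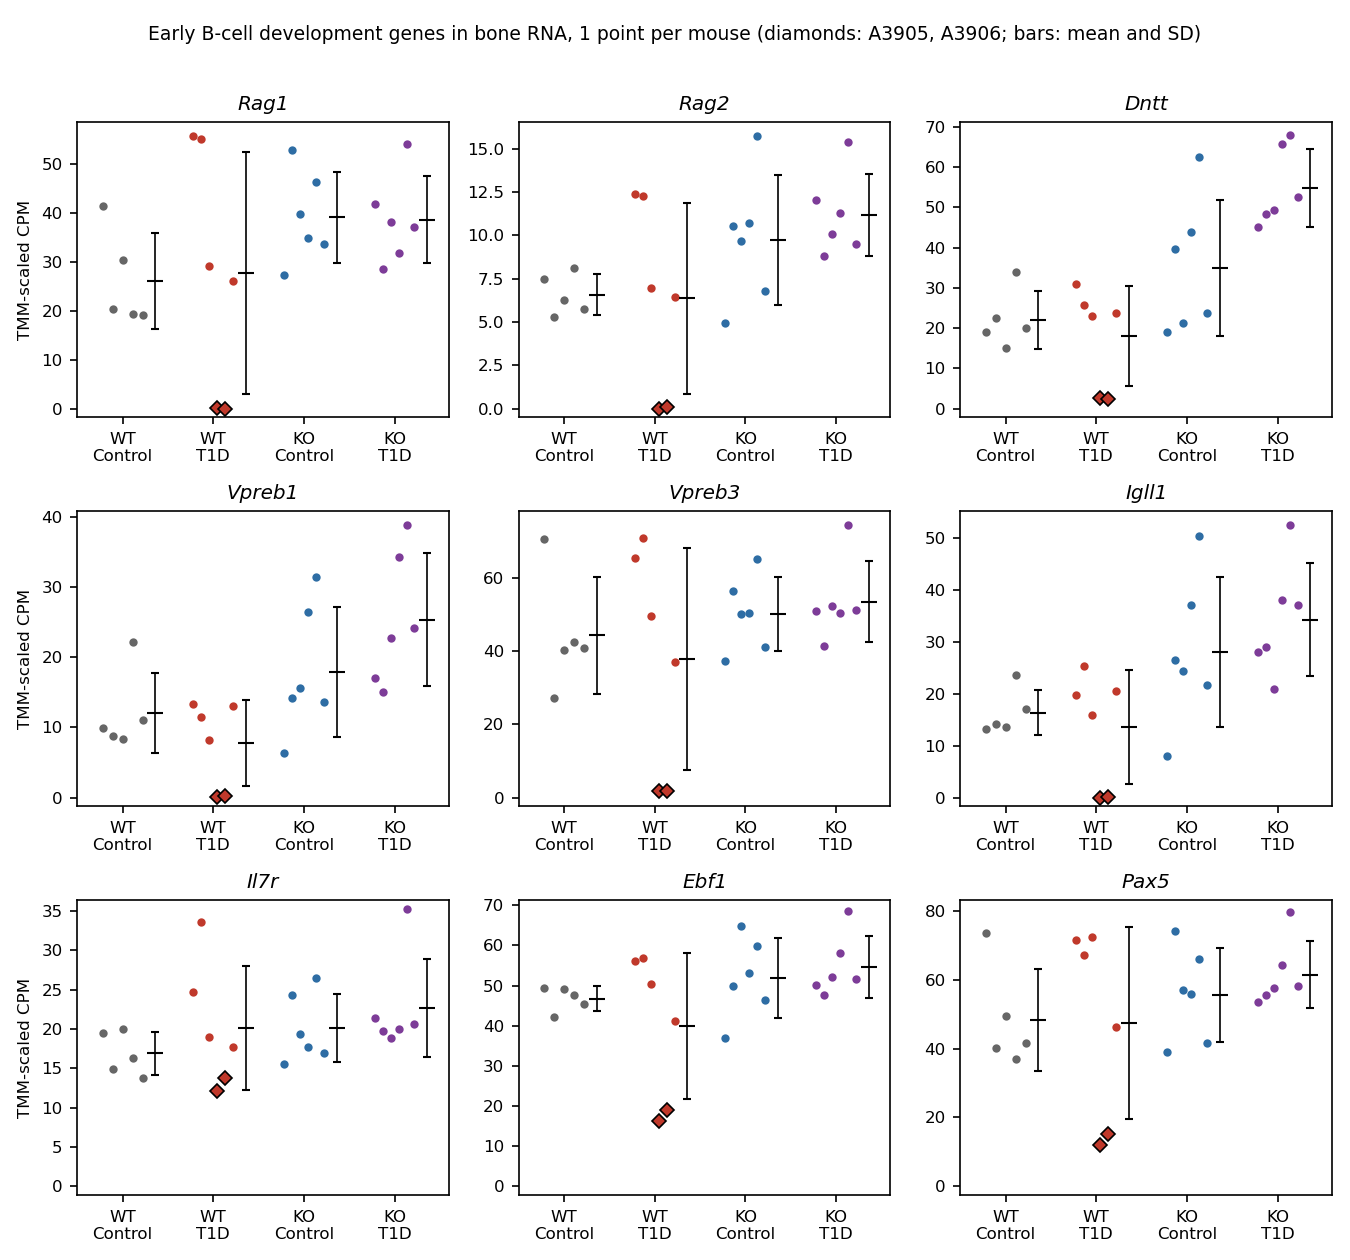
Level of each gene in TMM-scaled CPM (linear axis) for every mouse, by group, with black bars for the mean and SD of the group. Diamonds mark the WT T1D mice A3905 and A3906, which lie below all other mice in all 9 panels and near 0 for Rag1, Rag2, Vpreb1, Vpreb3 and Igll1.

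Other gene lists moved in these 2 libraries as well. The osteoblast and osteocyte list summed to 1914 and 1572 TPM in A3905 and A3906, against 36950 to 83120 TPM in the other mice, with 9 of its 11 genes below all others. The erythroid list summed to 472000 and 470600 TPM, against 235700 to 410300 TPM, with 10 of its 13 tested genes above all others. The neutrophil list summed to 65020 and 61380 TPM, within the range of 42010 to 73350 TPM, but its mean log2 CPM of 11.17 and 11.01 was above the highest other mouse (10.88), and 6 of its 12 genes were above all others (Camp, S100a8, S100a9, Mmp8, Mmp9 and Lcn2). The mature B list summed to 356.2 and 358.5 TPM, against 484.4 to 804.4 TPM, so that B-cell RNA was lower but far from 0, with 4 of 11 genes below all other mice. The T cell list summed to 48.57 and 48.69 TPM, next to the range of 50.35 to 98.67 TPM elsewhere. Its mean log2 CPM of 2.46 and 2.458, however, lay within the range of the other mice (1.911 to 2.586). Of its 14 tested genes, 2 were below and 2 above all other mice. No tested marker of the mature B, T cell, erythroid, neutrophil or osteoblast lists was at 0 counts in either library. The part of tissue composition or dissection in the low values of the 9 genes was not tested.

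**Figure D2:**
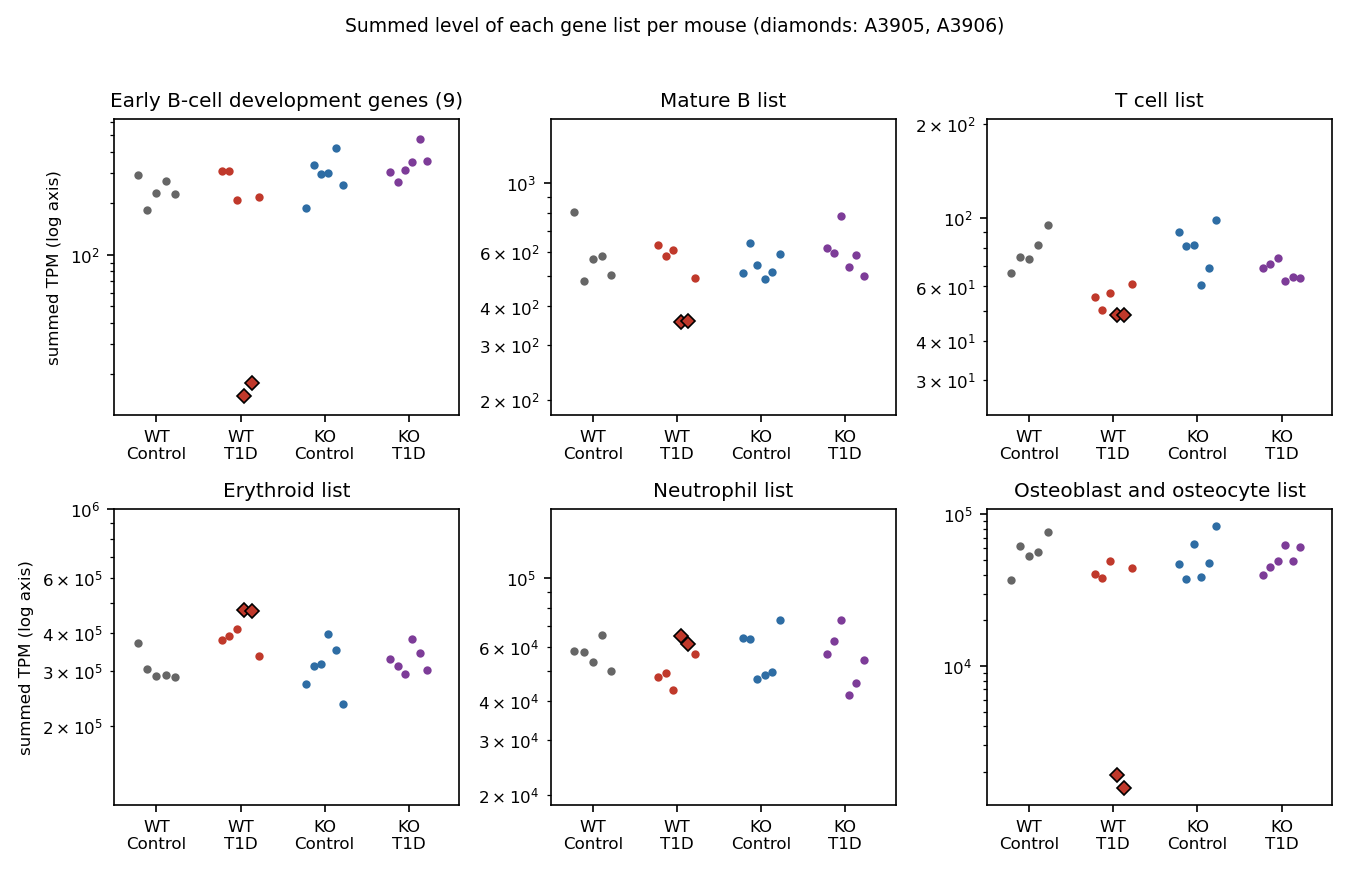
Summed TPM of the 9 genes and of 5 marker lists for every mouse, by group, on log axes of differing range. The diamonds (A3905 and A3906) are far below the other 21 mice for the 9 genes and the osteoblast and osteocyte list, somewhat below for the mature B list, above for the erythroid list, and within the range for the neutrophil list, whose mean log2 CPM was above all other mice in both.

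Genes that work with the 9 members were taken from lists of each step. Of all tested genes, 15.1% were below and 11.5% above all other mice in both A3905 and A3906. Of 11 tested genes of pre-B-cell receptor signalling, 8 were below (Vpreb2, Cd79a, Cd79b, Blnk, Syk, Blk, Plcg2 and Fyn), and 0 were above. Blnk, the adaptor downstream of the receptor, had 12.1 and 13.2 CPM, against 35.0 to 66.9 CPM. Of 15 surface markers of pro-B and pre-B cells, 10 were below, among them Ly6d with 12.3 and 20.1 CPM, against 34.3 to 90.3 CPM, and 2 above, Bst1 and Spn, which myeloid cells also express. Of 22 B-lineage transcription factors other than Ebf1 and Pax5, 12 were below and 3 above (Ikzf1, Spi1 and Id2), with the B-cell factor Spib at 17.4 and 19.0 CPM, against 74.5 to 202 CPM. These examples were chosen after their values were seen.

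Lists of genes that other cell types also use are given for comparison. Of 12 listed genes that take part in V(D)J recombination and that other cell types also express, 2 were below (Lig4 and Polm) and 1 above (Hmgb2). The share below is near the 15.1% of all tested genes. In the IL-7 pathway, 3 of 12 genes were below (Il7, Il2rg and Socs1) and 3 above (Stat5b, Cish and Mcl1). Il7, the ligand made by marrow stroma, had 1.59 and 1.50 CPM, against 2.12 to 6.33 CPM, and Cish, a target of STAT5, had 16.6 and 23.4 CPM, against 5.01 to 11.7 CPM. Of 11 genes of niche stroma and adipocytes, 1 was below (Ebf2) and 4 above (Cxcl12, Vcam1, Fabp4 and Plin1).

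The question of whether T1D changed the 9 genes was asked within each genotype. None of the 9 passed the threshold (adjusted p under 0.05) in WT mice, where 2.33% of all tested genes were called (334 genes, and from 0 to 1262 genes with 1 mouse left out), or in mice labelled KO, where 0% were called (452 genes had an unadjusted p under 0.05). The interaction of genotype and T1D also called 0 of 9, with 0% of all genes called (1467 at an unadjusted p under 0.05), and its estimates ran from -0.11 ± 0.90 for Rag1 to 1.14 ± 0.81 for Vpreb1 on the log2 scale. Without A3905 and A3906, they ran from -0.69 ± 0.34 for Rag1 to 0.56 ± 0.48 for Vpreb1, and their median over the 9 genes moved from 0.301 to -0.238. T1D averaged over the genotypes called 0 of 9, with 0.111% of all genes called, and the median of the 9 estimates was 0.032 with all mice and 0.3 without these 2. The values below show the spread behind these tests.

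For Rag1, the 5 WT Control mice had 19.2, 19.3, 20.4, 30.5 and 41.6 CPM, and the 6 WT T1D mice had 0, 0.226, 26.1, 29.2, 55.1 and 55.8 CPM. WT T1D thus held both the lowest and the highest Rag1 values of the WT mice, and the groups overlapped. The log2 fold change with T1D was 0.08 ± 0.66 (SE, adjusted p = 0.957, edgeR), and without A3905 and A3906 it was 0.67 ± 0.26 (adjusted p = 0.359). In mice labelled KO, Rag1 had 27.3 to 53.1 CPM (median 37.4) in Control and 28.6 to 54.2 CPM (median 37.7) in T1D. These ranges nearly coincided, and the log2 fold change was -0.02 ± 0.62 (adjusted p = 1).

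Rag2 followed Rag1 in its shape. WT Control mice had 5.32, 5.73, 6.27, 7.50 and 8.12 CPM, and WT T1D mice had 0, 0.116, 6.45, 6.94, 12.3 and 12.4 CPM. The same mice, A1764 and A1787, were highest for both subunits of the recombinase. The log2 fold change of Rag2 was -0.05 ± 0.59 (adjusted p = 0.974), and 0.53 ± 0.26 (adjusted p = 0.467) without A3905 and A3906, a change of sign. KO Control and KO T1D overlapped too, and Rag2 had 4.92 to 15.8 CPM (median 10.1) in Control and 8.79 to 15.4 CPM (median 10.7) in T1D.

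Dntt had 15.1, 19.0, 20.1, 22.4 and 34.0 CPM in WT Control, and 2.49, 2.55, 23.1, 23.7, 25.8 and 31.1 CPM in WT T1D. Apart from A3905 and A3906, the WT T1D values lay inside the WT Control range. In mice labelled KO, Dntt had 18.9 to 62.5 CPM (median 31.8) in Control and 45.2 to 67.9 CPM (median 50.9) in T1D. The log2 fold change there was 0.65 ± 0.42 (adjusted p = 1), the largest of the 9 genes with T1D in mice labelled KO, and the groups overlapped. Without A3905 and A3906, whose spread enters the fit of all groups, its unadjusted edgeR p was 0.0116 and its adjusted p 0.995.

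Vpreb1 had 8.42, 8.78, 9.91, 11.1 and 22.2 CPM in WT Control, where A3904 was well above the rest. WT T1D mice had 0.113, 0.173, 8.26, 11.4, 13.1 and 13.3 CPM. Outside A3905 and A3906, WT T1D and WT Control overlapped, and the log2 fold change moved from -0.64 ± 0.60 (adjusted p = 0.555) to -0.07 ± 0.37 (adjusted p = 0.972) without these mice. In mice labelled KO, Vpreb1 had 6.29 to 31.4 CPM (median 14.9) in Control and 15.1 to 38.9 CPM (median 23.5) in T1D.

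Its partner Igll1 had 13.2, 13.6, 14.1, 17.1 and 23.7 CPM in WT Control, with A3904 again highest, and 0, 0.116, 15.9, 19.8, 20.5 and 25.3 CPM in WT T1D. Among mice labelled KO, it had 7.95 to 50.5 CPM (median 25.5) in Control and 20.9 to 52.6 CPM (median 33.1) in T1D. In KO Control, A3679 was lowest and A3673 highest for both surrogate light chain genes. Vpreb3 had 27.1 to 70.7 CPM (median 40.8) in WT Control, 1.70 to 70.9 CPM (median 43.2) in WT T1D, 37.1 to 64.9 CPM (median 50.2) in KO Control, and 41.4 to 74.5 CPM (median 51.0) in KO T1D.

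Il7r, whose level was least reduced in A3905 and A3906, had 13.8, 14.9, 16.4, 19.6 and 19.9 CPM in WT Control and 12.1, 13.8, 17.7, 19.0, 24.6 and 33.6 CPM in WT T1D. The log2 fold change was 0.25 ± 0.22 (adjusted p = 0.518) with all mice and 0.49 ± 0.20 (adjusted p = 0.379) without these 2 mice. In mice labelled KO, Il7r had 15.6 to 26.4 CPM (median 18.6) in Control and 18.9 to 35.2 CPM (median 20.3) in T1D, where A3675 was well above the other 5.

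Ebf1 showed the smallest spread relative to its level in WT Control, with 42.1, 45.4, 47.7, 49.2 and 49.5 CPM. WT T1D mice had 16.3, 19.0, 41.3, 50.4, 56.1 and 56.9 CPM, so that the other 4 lay on both sides of the Control values. Pax5 had 37, 40.0, 41.7, 49.5 and 73.5 CPM in WT Control and 12.1, 15.3, 46.3, 67.1, 71.5 and 72.3 CPM in WT T1D. The 73.5 CPM of Pax5 in WT Control came from A1757, the WT Control mouse of the A17 series, and the 3 WT T1D mice of that series had 67.1 to 72.3 CPM. Among mice labelled KO, Ebf1 had 37.1 to 64.8 CPM (median 51.5) in Control and 47.6 to 68.7 CPM (median 51.8) in T1D, and Pax5 had 38.9 to 74.0 CPM (median 56.4) in Control and 53.6 to 79.7 CPM (median 57.7) in T1D.

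Over the 9 genes, the median log2 fold change with T1D was -0.225 in WT mice and 0.172 in mice labelled KO, beside -0.011 and -0.0016 over all tested genes. Without A3905 and A3906, the median in WT mice was 0.329, and 8 of the 9 values were above 0. The mouse ID series moved with this. Among WT Control mice, A1757 was above the 4 mice of the later series for 4 genes (Rag1, Vpreb3, Ebf1 and Pax5). A3909, the remaining WT T1D mouse of the later series, lay within the range of those 4 Control mice for 8 of the 9 genes, and for Ebf1 it had 41.3 CPM, against 42.1 to 49.2 CPM. With 1 such WT T1D mouse and 1 A17 Control mouse, T1D and the ID series cannot be told apart in the WT mice other than A3905 and A3906.

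The comparison of genotypes asked whether the 9 genes differed between mice labelled KO and WT mice. In Control mice, 0 of 9 were called, where 0.0278% of all genes were called (4 genes). All 9 estimates were above 0, with log2 fold changes from 0.15 ± 0.24 (Ebf1) to 0.78 ± 0.64 (Igll1) and a median of 0.564, beside -0.0003 over all genes. The groups overlapped for all 9 genes. Apart from A3766 (KO Control) and A3767 (WT Control), no start of the mouse ID was shared by these groups. Without A3905 and A3906, the estimate for Igll1 was 0.78 ± 0.30 (edgeR unadjusted p = 0.0176, adjusted p = 0.74). The same difference was thus measured with a smaller error but still missed the threshold. In that fit 4 of the 9 genes had an unadjusted edgeR p under 0.05, with Rag1 at 0.0209, Rag2 at 0.0279 and Dntt at 0.0145 beside Igll1. Their adjusted p ran from 0.733 (Dntt) to 0.743 (Rag1 and Rag2).

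In mice with T1D, 0 of 9 were called, where 0.0905% of all genes were called (13 genes). This comparison shares its WT T1D mice with that of T1D in WT mice. All KO T1D mice had IDs starting with A36, and all WT T1D mice had IDs starting with A17 or A39. Genotype and the start of the mouse ID thus cannot be told apart here. The estimates were largest for Vpreb1 (log2 fold change 1.71 ± 0.57, adjusted p = 0.18), Dntt (1.60 ± 0.44, adjusted p = 0.119) and Igll1 (1.33 ± 0.61, adjusted p = 0.27). For Dntt, the lowest KO T1D mouse (45.2 CPM) was above the highest WT T1D mouse (31.1 CPM), and for Vpreb1 the lowest KO T1D mouse (15.1 CPM) was above the highest WT T1D mouse (13.3 CPM). Every KO T1D mouse was above every WT T1D mouse for these 2 genes, and for 65 of all tested genes (0.453%). The other 6 genes had log2 fold changes from 0.17 ± 0.21 (Il7r) to 0.81 ± 0.56 (Rag2), with adjusted p from 0.309 (Ebf1) to 0.725 (Rag1).

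The size of these differences depended on A3905 and A3906. Without them, the log2 fold change was 1.14 ± 0.36 for Vpreb1 (adjusted p = 0.519), and the others were Dntt 1.08 ± 0.27 (adjusted p = 0.303), and Igll1 0.75 ± 0.32 (adjusted p = 0.75). The other 6 genes then lay between -0.11 ± 0.25 (Rag1) and 0.23 ± 0.25 (Rag2), and Rag1, Vpreb3, Il7r and Pax5 changed sign. The values for Dntt, Vpreb1 and Igll1 thus stayed above 0 in both fits, and so did those for Rag2 and Ebf1. The median over the 9 genes moved from 0.501 to 0.0944. Other tools called some of the 9 genes in this comparison. DESeq2 called Dntt (adjusted p = 0.0497), and limma on log2(TPM + 1) called Dntt, Vpreb1 and Igll1 (adjusted p = 0.0292, 0.0402 and 0.0493). With these tools 1.66% and 8.12% of all tested genes were called.

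**Figure D3:**
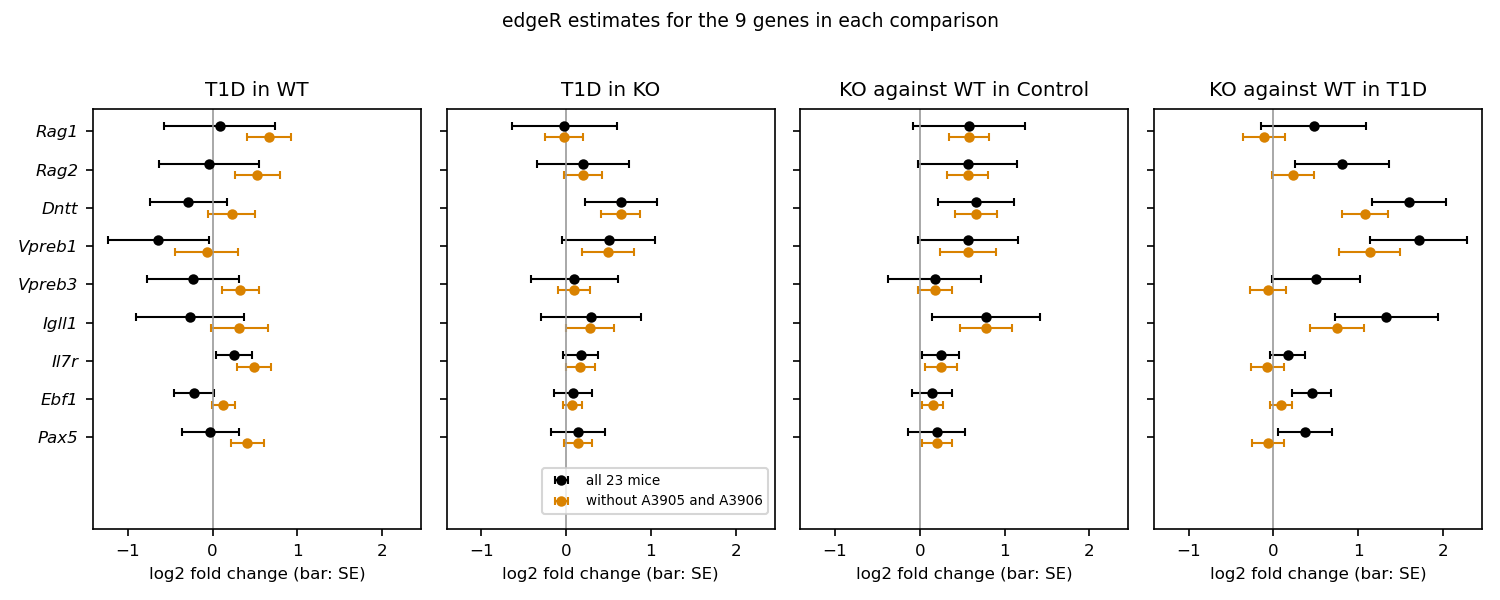
Log2 fold change of each gene (points, with SE bars, from edgeR) for T1D within each genotype and for mice labelled KO against WT mice within Control and T1D. Black is the fit to all 23 mice and orange the fit without A3905 and A3906. In the orange fit the SE of Rag1 for T1D in WT mice was 0.257 in place of 0.656. Between KO T1D and WT T1D, Dntt, Vpreb1, Igll1, Rag2 and Ebf1 stayed above 0 in both fits.

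Marker lists of other lymphoid cells are given beside these values. The mature B list summed to 502.2 to 781.3 TPM in KO T1D and 356.2 to 631.7 TPM in WT T1D, where A3905 and A3906 were the lowest and the ranges overlapped. The T cell list summed to 62.62 to 73.96 TPM in KO T1D and 48.57 to 61.29 TPM in WT T1D, and these ranges did not overlap. Within this list Cd4 had 34.4 ± 2.43 and 24.2 ± 7.66 CPM (mean ± SD, n = 6 each). The mean log2 CPM of the list overlapped (1.911 to 2.387 and 2.009 to 2.46), and the median log2 fold change of its genes was -0.139 with all mice and 0.171 without A3905 and A3906. The plasma cell list summed to 305.6 to 378.5 TPM in KO T1D and 173.6 to 272.5 TPM in WT T1D, and these did not overlap either. Its mean log2 CPM did overlap (4.449 to 4.75 in KO T1D and 4.154 to 4.526 in WT T1D). Of its 7 tested genes 0 were called, and their median log2 fold change was 0.199 with all mice and 0.175 without A3905 and A3906. The part of these cell types in the differences of Dntt, Vpreb1 and Igll1 was not tested.

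The 9 genes largely moved as a set between mice of a group. In KO T1D, A3675 was highest for all 9 genes, and in KO Control, A3679 was lowest for all 9. Across all 23 mice, the within-group deviations of log2 CPM were correlated for all 36 pairs (Pearson's r from 0.656 to 0.987, Spearman's rho from 0.606 to 0.941, largest adjusted permutation p 0.0132 and 0.0229), but A3905 and A3906 form a cluster of their own in these values. Deviations of the other 21 mice were therefore taken from their own group means, a choice made after the data were seen. There r ranged from 0.203 to 0.885 and rho from 0.186 to 0.883, and 25 of 36 pairs had an adjusted permutation p under 0.05 for r and 23 for rho.

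The neighbours Vpreb1 and Igll1, which encode the parts of the surrogate light chain, had the highest Pearson correlation in these 21 mice (r = 0.885, rho = 0.861, permutation p = 9e-05 and 6e-05, adjusted 0.000405 and 0.00048, and r = 0.799 without A3679 and A3673, the mice farthest from the median of Vpreb1). By rho, Rag2 with Vpreb3 (0.883) and Rag1 with Il7r (0.869) were higher. Dntt was correlated with Vpreb1 (r = 0.839, rho = 0.804, permutation p = 5e-05 and 8e-05, adjusted 0.000405 and 0.00048, r = 0.754 without A3673 and A3904). Rag1 was correlated with Vpreb3 (r = 0.852, rho = 0.812, permutation p = 6e-05 and 0.00039, adjusted 0.000405 and 0.00117, r = 0.786 without A1757 and A3909). Rag1 with Dntt had the lowest correlation (r = 0.203, rho = 0.186, permutation p = 0.373 and 0.408, adjusted 0.373 and 0.408, r = 0.263 without A1757 and A3909), although both act in V(D)J recombination.

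As a description, with no test, the 3 pairs among Dntt, Vpreb1 and Igll1 had r from 0.805 to 0.885. The 6 pairs among Rag1, Vpreb3, Il7r and Pax5 had r from 0.698 to 0.852. The 12 pairs between these 2 sets had r from 0.203 to 0.526. The 15 pairs with Rag2 or Ebf1 had r from 0.424 to 0.823. The lowest of these was Ebf1 with Dntt (rho = 0.37, adjusted permutation p = 0.169 and 0.174, r = 0.363 without A3673 and A3904), which lay within the range of the pairs between the sets. The neighbours Rag1 and Rag2 had r = 0.722 (rho = 0.761, permutation p = 0.00118 and 0.00101, adjusted 0.00236 and 0.00227, r = 0.724 without A1757 and A3909). In the 17 of these mice with IDs A36 to A39, the ranges were 0.822 to 0.898 within the first set, 0.725 to 0.872 within the second, and 0.253 to 0.726 between them.

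**Figure D4:**
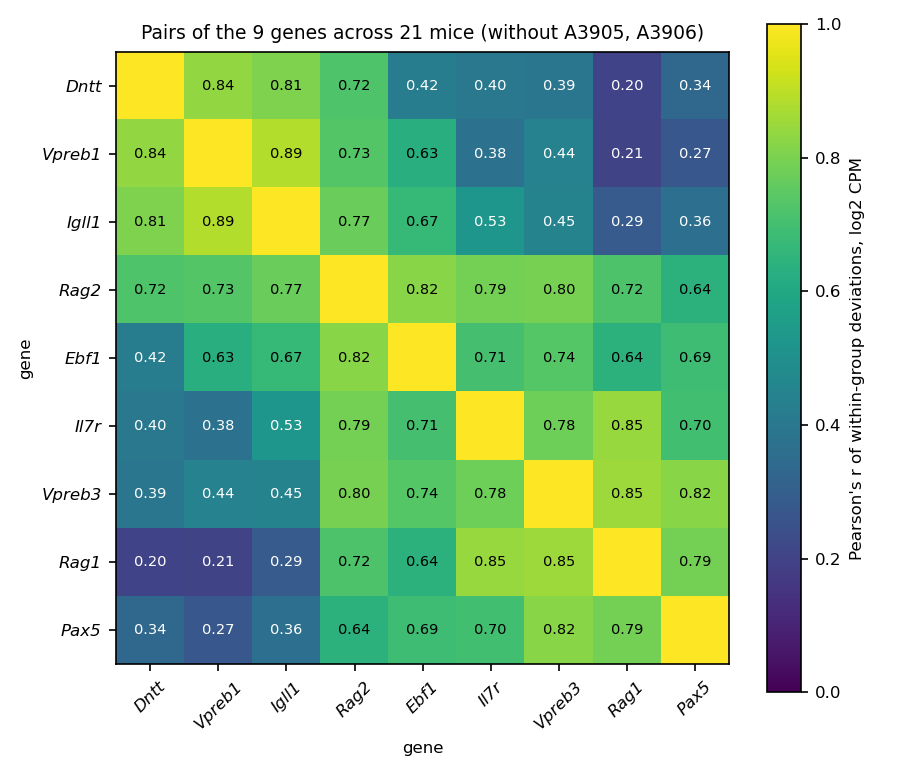
Pearson's r of within-group deviations of log2 CPM for each pair of the 9 genes, over the 21 mice other than A3905 and A3906, with the genes ordered after seeing the values. Dntt, Vpreb1 and Igll1 form a corner with r from 0.805 to 0.885, and their pairs with Il7r, Vpreb3, Rag1 and Pax5 have r from 0.203 to 0.526.

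**Figure D5:**
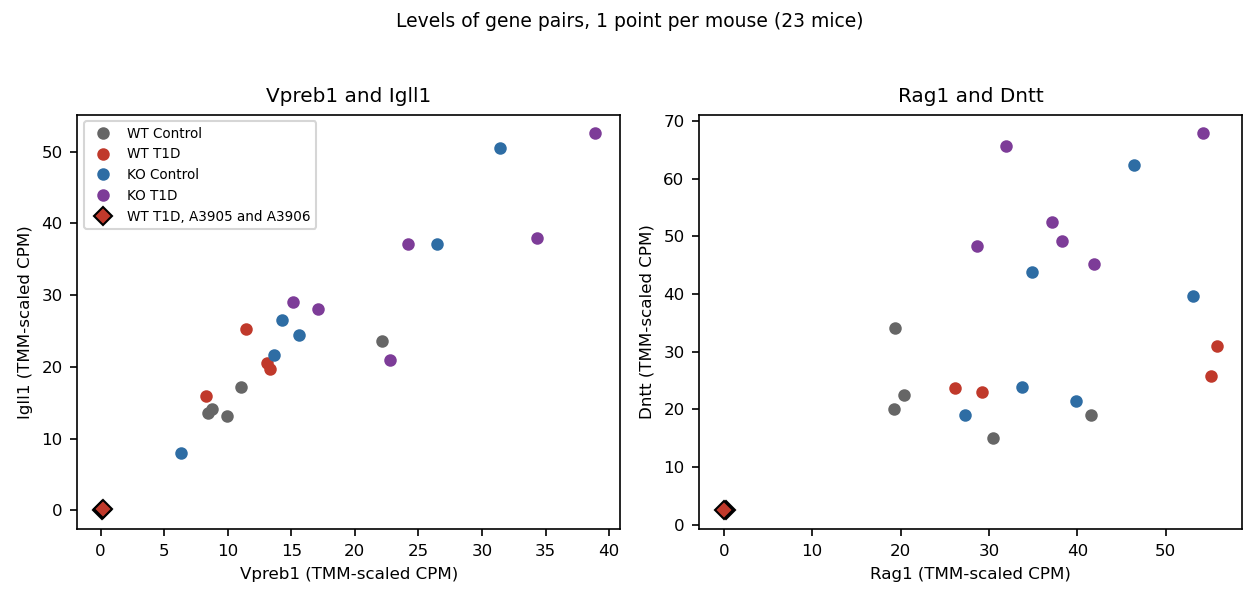
TMM-scaled CPM of Igll1 against Vpreb1 (left) and of Dntt against Rag1 (right), 1 point per mouse, coloured by group. Vpreb1 and Igll1 rise together from A3679 to A3675, whereas the WT T1D mice A1764 and A1787, with Rag1 at 55.8 and 55.1 CPM, had Dntt at 31.1 and 25.8 CPM, and the KO T1D mice, with Rag1 from 28.6 to 54.2 CPM, had Dntt from 45.2 to 67.9 CPM.

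The genes outside the 9 whose deviations were most like their mean were ranked among 13298 tested genes with a mean of at least 1 CPM. Over 23 mice these were Slamf7 (r = 0.97), Blnk (0.968), Cplx2 (0.967), Rapgefl1 (0.954), Pafah1b3 (0.95), Dpp4 (0.949), Pou2af1 (0.949) and Aff3 (0.944). Over the 21 mice without A3905 and A3906, Cplx2 (0.895) and Blnk (0.852) were again among the first 8, beside Mzb1 (0.894), Ets1 (0.84), Elof1 (0.836), Stambpl1 (0.835), Desi1 (0.815) and Gfra2 (0.812). Blnk is the pre-B-cell receptor adaptor, Pou2af1 a B-cell coactivator, and Mzb1 a chaperone of antibody-making B cells. These values are descriptions, given with no p.

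The related lists were also counted for calls. With T1D in WT mice, 0 of the tested genes were called in each list of the B lineage (12 V(D)J recombination, 12 IL-7 pathway, 22 transcription factor, 11 pre-B-cell receptor, 15 surface marker, 11 mature B and 7 plasma cell genes). Their median log2 fold changes lay between -0.121 (plasma cell) and 0.0648 (mature B), beside -0.011 over all genes. In the fit without A3905 and A3906 they lay between -0.131 (plasma cell) and 0.347 (mature B), with 0.212 for the surface markers and 0.11 for the pre-B-cell receptor genes. With all 23 mice, the largest average changes with T1D that missed the threshold were 0.44 ± 0.20 for Cish, -0.27 ± 0.12 for Socs1, 0.40 ± 0.16 for the stromal and B-cell enzyme Bst1, 0.34 ± 0.09 for Cd24a, -0.30 ± 0.10 for the end-joining nuclease Dclre1c, and -0.12 ± 0.12 for Xrcc4. Among transcription factors they were 0.23 ± 0.07 for Ikzf1 and -0.23 ± 0.14 for Id3. Among pre-B-cell receptor genes they were -0.25 ± 0.43 for Vpreb2 and -0.17 ± 0.15 for Fyn.

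The other lists are set beside the 2.33% of all tested genes called with T1D in WT mice, a total that ran from 0 to 1262 genes with 1 mouse left out. Of 13 erythroid genes, 5 were called higher with T1D in WT mice, among them Hbb-bs (log2 fold change 0.90 ± 0.20), Hba-a1 (0.69 ± 0.19) and Slc4a1 (0.64 ± 0.14). Of 11 osteoblast and osteocyte genes, Ibsp (-0.78 ± 0.15) and Runx2 (-0.66 ± 0.16) were called lower, and Cd4 (-0.67 ± 0.17) was the called gene of 14 in the T cell list. In the cell cycle list, 3 of 10 genes (Ccnb1, Cdk1 and Aurkb) and the adipocyte gene Fabp4 (1.36 ± 0.32) were called higher. The 2 largest average changes with T1D in the lists with fewer than 2 calls were -0.58 ± 0.12 for Cd4 (called, adjusted p = 0.0448) and -0.47 ± 0.18 for Cd8a, 0.34 ± 0.19 for Cxcr5 and 0.27 ± 0.20 for Ccr7 of the mature B list, -0.21 ± 0.14 for Prdm1 and 0.20 ± 0.15 for Jchain of the plasma cell list, 0.31 ± 0.14 for Mmp8 and 0.23 ± 0.10 for Mpo of the neutrophil list, and 0.89 ± 0.31 for Plin1 beside 0.71 ± 0.21 for Fabp4. In the fit without A3905 and A3906, 0 genes of any list were called in this comparison, and 0 of all tested genes.

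Between KO T1D and WT T1D, 0 genes were called in the lists of the B lineage. Medians of the log2 fold change were 0.152 for the transcription factors, 0.0781 for the surface markers, 0.0637 for the pre-B-cell receptor genes, and -0.0431 for the mature B genes, beside 0.0062 over all genes and 0.501 over the 9 early genes. In the fit to the other 21 mice they were 0.0393, -0.0919, -0.0219 and -0.275 in the same order, beside 0.0944 over the 9, so that the surface marker and pre-B-cell receptor medians changed sign. The factor Lef1 (1.01 ± 0.28, adjusted p = 0.12), the surrogate light chain gene Vpreb2 (1.57 ± 0.61, adjusted p = 0.213) and the pre-B-cell gene Arpp21 (0.87 ± 0.33, adjusted p = 0.206), chosen after their values were seen, had estimates with all mice nearest in size to those of Dntt, Vpreb1 and Igll1 within these lists.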

How the data were processed

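Bulk RNA-Seq values of 23 mice were used, 1 library per mouse, in 4 groups taken from the library labels, with the mouse ID as the name of each replicate. The authors deposited expected counts from RSEM as unnormalized whole numbers, and TPM values that the sequencing company had computed. The reads, from a stranded oligo dT library, had passed SOAPnuke, and HISAT and Bowtie2 had placed them on GRCm38.p6. Those steps are part of the values, and reads shared between near-identical genes (Vpreb1 and Vpreb2, Hba-a1 and Hba-a2) are split by estimation.

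The 14364 genes that reached 10 counts in 5 or more mice were tested with the edgeR 4.0.16 quasi-likelihood test in R 4.3.3 on all 4 groups, with TMM scaling. Log2 fold changes are given with their SE, and p values were adjusted over all 14364 genes by the Benjamini-Hochberg method with a threshold of 0.05. CPM were divided by TMM-scaled library sizes. Pairs of genes were compared over mice by the deviations of log2(CPM + 0.5) from group means, with two-sided permutation tests of 100000 resamples within groups (smallest possible p 1e-05), adjusted over 36 pairs. Only the edgeR test was tried on simulated counts. These had the same spread for every gene and no mice set apart like A3905 and A3906, so they do not show how the test handles such mice. Alternatives were DESeq2 1.42.0, limma 3.58.1 on log2(TPM + 1) and log2(TPM + 0.1), other scaling and filters, an adjusted p under 0.1, mice with IDs A36 to A39, and leaving out mice.

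The 9 genes and the gene lists were chosen with earlier results of these data known. Named genes were the 9 members, Sarm1, up to 3 called genes per list with the largest change or, with fewer than 2 called, the 2 with the largest average change with T1D, and the 8 genes most like the members. For any others, the text says that they were picked from their values. Ighm, Ighd, Tnfrsf17, Ptcra and Ahsp, which are in the lists, were not among the genes tested. Gene positions and upstream sequences came from RefSeq tables of GRCm38.p6, in which all 9 genes were found. Each replicate is a separate mouse.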

Additional observations from a re-analysis of the deposited data

Results flagged for a closer look

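In 36 group and gene combinations (9 genes in 4 groups), the gap of the highest or lowest mouse to its nearest neighbour was compared with the range of the group, a check that passes about 1 group in 20 by chance. Vpreb1 in WT Control had A3904 at 22.2 CPM, against 8.42 to 11.1 CPM in the other mice, a gap of 0.72 of the range. Il7r in KO T1D had A3675 at 35.2 CPM, against 18.9 to 21.4 CPM in the others, a gap of 0.795 of the range. A3675 was highest in KO T1D for all 9 genes and A3904 was highest in WT Control for 4 of 9. A3905 and A3906 were not picked out by this check, since each is the nearest neighbour of the other.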

How the results depend on the processing

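The 9 genes gave 0 calls in all 6 comparisons in the fit reported, with DESeq2 size factors, library size alone, either other filter, an adjusted p under 0.1, without A3905 and A3906, and with each mouse left out. Exceptions were KO against WT in T1D, with 1 call by DESeq2 (Dntt), 3 by limma on log2(TPM + 1) (Dntt, Vpreb1 and Igll1), 2 by limma on log2(TPM + 0.1) (Dntt and Vpreb1) and 5 in mice A36 to A39 (Rag2, Dntt, Vpreb3, Ebf1 and Pax5), and T1D in WT mice, with 1 call in mice A36 to A39 (Ebf1). In mice A36 to A39, WT T1D holds A3905, A3906 and A3909. For KO against WT in T1D, these settings called 1.66%, 8.12%, 8.25% and 10.8% of all tested genes, in the same order. For T1D in WT mice, 15.5% of all tested genes were called in mice A36 to A39. Over all genes, calls for T1D in WT mice went from 334 to 0 without the WT Control mouse A3767 or A3907 and to 1262 without A3909, and were 1002 by DESeq2, 5154 by limma on log2(TPM + 1) and 0 without A3905 and A3906. Limma on TPM also moved the median of all genes to -0.24 and -0.29 for T1D in WT mice and to 0.17 and 0.21 for KO against WT in T1D, the direction of its calls there, so its values are shifted by that amount. Signs changed as follows, for values of which none but those named were called, and the cause was not tested.

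With limma on log2(TPM + 1), log2 fold changes that changed sign were, for T1D in WT mice Rag1 -0.63, Il7r -0.084, for the interaction Rag1 0.57, Il7r 0.19, for T1D averaged over genotypes Rag1 -0.34, Rag2 -0.16, Dntt -0.10, Igll1 -0.57, Pax5 -0.23, for KO against WT in Control Pax5 -0.031. With limma on log2(TPM + 0.1), log2 fold changes that changed sign were, for T1D in WT mice Rag1 -1.56, Il7r -0.11, for the interaction Rag1 1.50, Il7r 0.22, for T1D averaged over genotypes Rag1 -0.81, Rag2 -0.57, Dntt -0.19, Igll1 -1.02, Pax5 -0.27, for KO against WT in Control Pax5 -0.032. In mice A36 to A39, log2 fold changes that changed sign were, for T1D in WT mice Rag1 -1.34, Il7r -0.15, for the interaction Rag1 1.31, Il7r 0.32, for T1D averaged over genotypes Rag1 -0.68, Rag2 -0.66, Dntt -0.30, Igll1 -0.51, Pax5 -0.31. Without A3905 and A3906, log2 fold changes that changed sign were, for T1D in WT mice Rag2 0.53, Dntt 0.23, Vpreb3 0.33, Igll1 0.32, Ebf1 0.13, Pax5 0.41, for the interaction Rag2 -0.34, Vpreb3 -0.24, Igll1 -0.029, Ebf1 -0.057, Pax5 -0.27, for T1D averaged over genotypes Vpreb1 0.21, Vpreb3 0.21, Ebf1 0.10, for KO against WT in T1D Rag1 -0.11, Vpreb3 -0.062, Il7r -0.071, Pax5 -0.067. With library size alone, log2 fold changes that changed sign were, for T1D averaged over genotypes Rag1 -0.016, Igll1 -0.031.

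For T1D in WT mice, the range with each mouse left out in turn was -0.24 to 0.36 for Rag1, -0.35 to 0.22 for Rag2, -0.52 to 0.031 for Vpreb3, -0.54 to 0.0075 for Igll1, -0.19 to 0.18 for Pax5. For T1D in mice labelled KO, the range with each mouse left out in turn was -0.15 to 0.083 for Rag1, -0.030 to 0.18 for Vpreb3, -0.0054 to 0.27 for Il7r, -0.0077 to 0.14 for Ebf1. For the interaction, the range with each mouse left out in turn was -0.38 to 0.21 for Rag1, -0.031 to 0.54 for Rag2, -0.26 to 0.12 for Il7r, -0.043 to 0.32 for Pax5. For T1D averaged over genotypes, the range with each mouse left out in turn was -0.14 to 0.17 for Rag1, -0.081 to 0.21 for Rag2, -0.19 to 0.091 for Vpreb1, -0.21 to 0.061 for Vpreb3, -0.13 to 0.15 for Igll1, -0.14 to 0.0080 for Ebf1, -0.025 to 0.16 for Pax5. For KO against WT in T1D, the range with each mouse left out in turn was -0.013 to 0.36 for Il7r.

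No paired analysis was possible because the groups share no mouse numbers. Depth limits Rag1, Rag2, Vpreb1 and Igll1 in A3905 and A3906, where they had 0 to 4 counts.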

Other observations

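Besides Rag1, Rag2, Vpreb1, Vpreb3 and Igll1, the 49 genes that were over 10 times below the lowest of the other 21 mice in both A3905 and A3906 included the osteocalcin genes Bglap and Bglap2, the cartilage collagens Col11a1 and Col11a2, and Smpd3, a sphingomyelinase of mineralizing tissue. These names were chosen after the values were seen, and the genes were not tested as a set. Bglap had 131 and 90.2 CPM in A3905 and A3906, against 4810 to 11600 CPM in the other mice. Fcrla, a gene of B cells, had 5.32 and 8.96 CPM, against 35.3 to 83.5 CPM, while the B-cell genes Cr2 (5.21 and 4.40 CPM, against 1.87 to 8.37 CPM) and Cxcr5 (7.59 and 10.6 CPM, against 6.31 to 22.3 CPM) lay within the range of the other mice. Within the mature B list, levels in these 2 mice thus ran from below all other mice to inside their range. Of the plasma cell genes, Jchain had 224 and 211 CPM, against 85.6 to 270 CPM, and Mzb1 had 3.79 and 3.70 CPM, against 7.72 to 20.3 CPM.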
